A study of Mus musculus with 9 samples.

Results

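The proteasome genes described here are 47 mouse genes, found by name among the 54986 gene IDs of the tables: the subunits of the core and regulatory particles, the immunoproteasome subunits, the activators and the assembly factors. They correspond to 48 gene IDs, since Psmd10 is listed both on chromosome X and on an assembly patch, with almost equal values. The RNA came from primary embryonic fibroblasts of C57BL/6 mice, all labelled D4-OSKM-2ndMEFs, in 3 groups of 3 libraries: a control, overexpression of Zscan4f and overexpression of Zscan4f3A. OSKM, the name of the reprogramming factors Oct4, Sox2, Klf4 and Myc, stands in the label of every group, control included, so no comparison without it was made. The sources used here do not say whether the control libraries carried an empty vector. They also do not give the promoter or vector of the overexpression, the changes that define Zscan4f3A or the meaning of D4. Zscan4f is a SCAN-domain zinc finger protein known from the two-cell embryo and from embryonic stem cells. Nothing states that the libraries of a group came from separate cultures, so p-values measure only the spread between these libraries, which may be technical.

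The proteasome is the protease complex that degrades proteins tagged with ubiquitin. Its core particle is a barrel of alpha rings, which gate the entrance, and beta rings, of which the subunits Psmb5, Psmb6 and Psmb7 cut the substrate. The regulatory particle caps the barrel: its base holds a ring of ATPases that unfold the substrate, and its lid holds the deubiquitinase that removes the tag. Interferon can replace the cutting subunits by Psmb8, Psmb9 and Psmb10, which gives the immunoproteasome, and other caps, the activators, can take the place of the regulatory particle. In mammalian cells the transcription factor Nfe2l1, also called Nrf1, is known for raising the subunit genes together when proteasome activity is short. RNA levels say nothing of the amount of assembled complex or of its activity.

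Aligned sequence was 6.60 to 8.39 gigabases in 8 libraries and 3.31 in Zscan4f3A replicate 3, which stands apart. Zscan4f itself stood at 0.330, 0 and 0.960 TPM in control, 570.0, 565 and 558 with Zscan4f and 827, 836 and 654 with Zscan4f3A, as the labels give it. TPM, the unit used, is a share of all transcripts, corrected for gene length and library depth. The level was higher in every Zscan4f3A library than in any Zscan4f library, so the forms were compared at unequal RNA levels, and reads of Zscan4f may be shared with its near-identical neighbours in the Zscan4 cluster. All 12 fibroblast markers examined were detected in every library, with summed levels of 13741 to 13770 TPM in control, 13836 to 14033 with Zscan4f and 13635 to 13970 with Zscan4f3A. Within that sum the markers moved in opposite directions with Zscan4f against control, 3 higher and 5 lower, such as Dcn (log2 change 0.51, SE 0.04, adjusted p = 4.2e-05) and Pdgfrb (log2 change -0.50, SE 0.05, adjusted p = 0.00022). Over all genes tested in that comparison, 8.74% were called higher and 9.71% lower. Of 7 immune markers, 5 stayed under 1 TPM in every library and Cd3e was listed at 0. Their sum was 14.6 to 16.9 TPM in control, 21.5 to 23.9 with Zscan4f and 15.6 to 17.5 with Zscan4f3A. Cd68 carried that rise (log2 change 0.60, SE 0.09, adjusted p = 0.0019), and Lyz2, the other immune marker tested, was not called (log2 change 0.05, SE 0.13, adjusted p = 0.87). All 3 endothelial markers and 3 of 4 pluripotency markers stayed under 1 TPM. The other pluripotency marker, Nanog, ran from 0.311 to 0.421 TPM in control, 0.759 to 1.96 with Zscan4f and 0.288 to 0.525 with Zscan4f3A, and was too low to be tested, although all its Zscan4f libraries lay above all others. All 6 epithelial markers were detected, and summed to 66.1 to 67.5 TPM in control, 194 to 198 with Zscan4f and 76.9 to 82.9 with Zscan4f3A. Krt8 (log2 change 1.91, SE 0.05, adjusted p = 4.1e-07) and Krt14 (log2 change 1.55, SE 0.06, adjusted p = 1.4e-06) carried most of it. Of the 6, 5 rose and Krt5 fell (log2 change -0.51, SE 0.13, adjusted p = 0.025), a call lost when any 1 of control replicates 1, 2 and 3 and Zscan4f replicates 1 and 2 was left out (adjusted p from 0.0535 to 0.0867). The part of the fibroblast, immune and epithelial markers in the results below was not tested. In bulk RNA fewer cells of a type cannot be told apart from less RNA per cell.

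Subunits of the constitutive proteasome were among the more abundant mRNAs of these fibroblasts and lay within a narrow range of one another. The 32 core and regulatory subunits had control means from 67.6 TPM (Psmd11) to 249.8 TPM (Psmd8), with a median of 169.9, a 3.70-fold range. Psmd11, the lowest of them, was still above 83.2% of the 15837 genes tested. Within both particles the beta ring was the most even, from 169 TPM for Psmb2 to 238 for Psmb3. Activators lay in the lower part of the range of the 32 subunits, from 73.0 TPM for Psme4 to 95.4 for Psme3. Assembly factors lay lower again, at 14.4 to 30.97 TPM per gene ID, apart from Pomp at 94.3. The lower end is Psmd10, whose 2 IDs together had a control mean of 28.9 TPM. Immunoproteasome subunits were far below their constitutive counterparts, as the plot of levels by subcomplex shows.

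**Figure D1:**
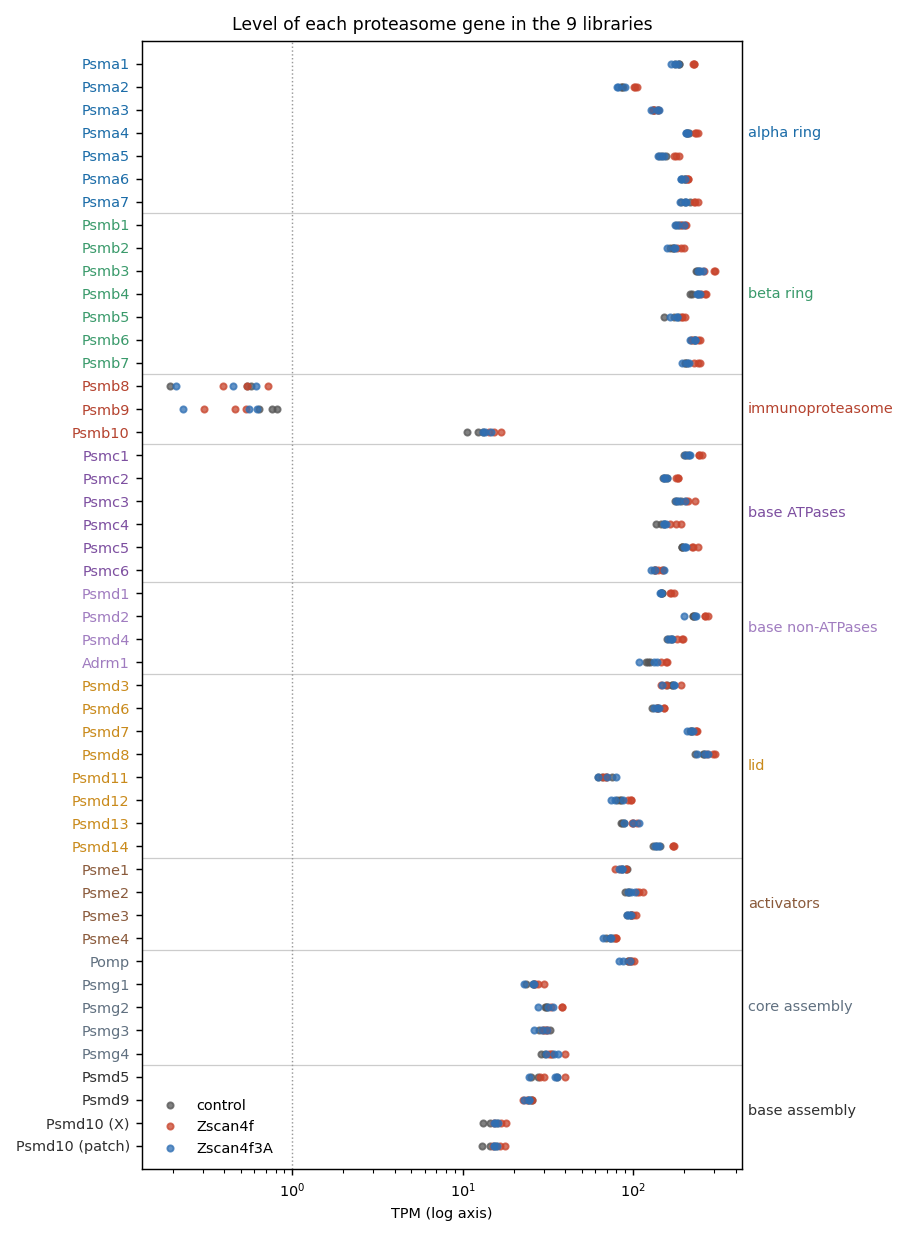
Level of each of the 48 gene IDs in the 9 libraries, in TPM on a log axis, with 1 point per library coloured by group and genes ordered by subcomplex. The core and regulatory subunits crowd between 62.0 and 302 TPM, while Psmb8 and Psmb9 lie left of the dotted line at 1 TPM in every library.

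With Zscan4f overexpression, many subunits of both particles were modestly higher than in control. Of the 9 gene IDs of assembly factors 0 were called, too few IDs for that count to set them apart. By limma on log2(TPM + 1), 22 of the 46 gene IDs tested rose at an adjusted p under 0.05 and 0 fell. Over all genes tested 8.74% were called higher and 9.71% lower, and among the 3673 genes with a mean of at least 50 TPM, a level most subunits reach, 14.9% were called higher and 12.6% lower. The rises of the 22 genes ran from 12.8% (Psma4) to 28.5% (Psmb10), or from 0.17 to 0.34 on the log2 scale. Over the 46 gene IDs the median log2 fold change was 0.19, against -0.0029 over all genes tested, and 43 of 46 lay above 0. In 31 of 46 all 3 Zscan4f libraries lay above all 3 control libraries and in 0 below, where 19.0% of all tested genes lay all above and 19.2% all below. At an unadjusted p under 0.05, 27 members were higher and 0 lower, where 4923 of all 15837 genes tested passed in either direction. Of the 22 calls, 14 held under all 17 alternative analyses, and the number of calls ran from 14 (without control replicate 3) to 26 (without Zscan4f3A replicate 3).

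**Figure D2:**
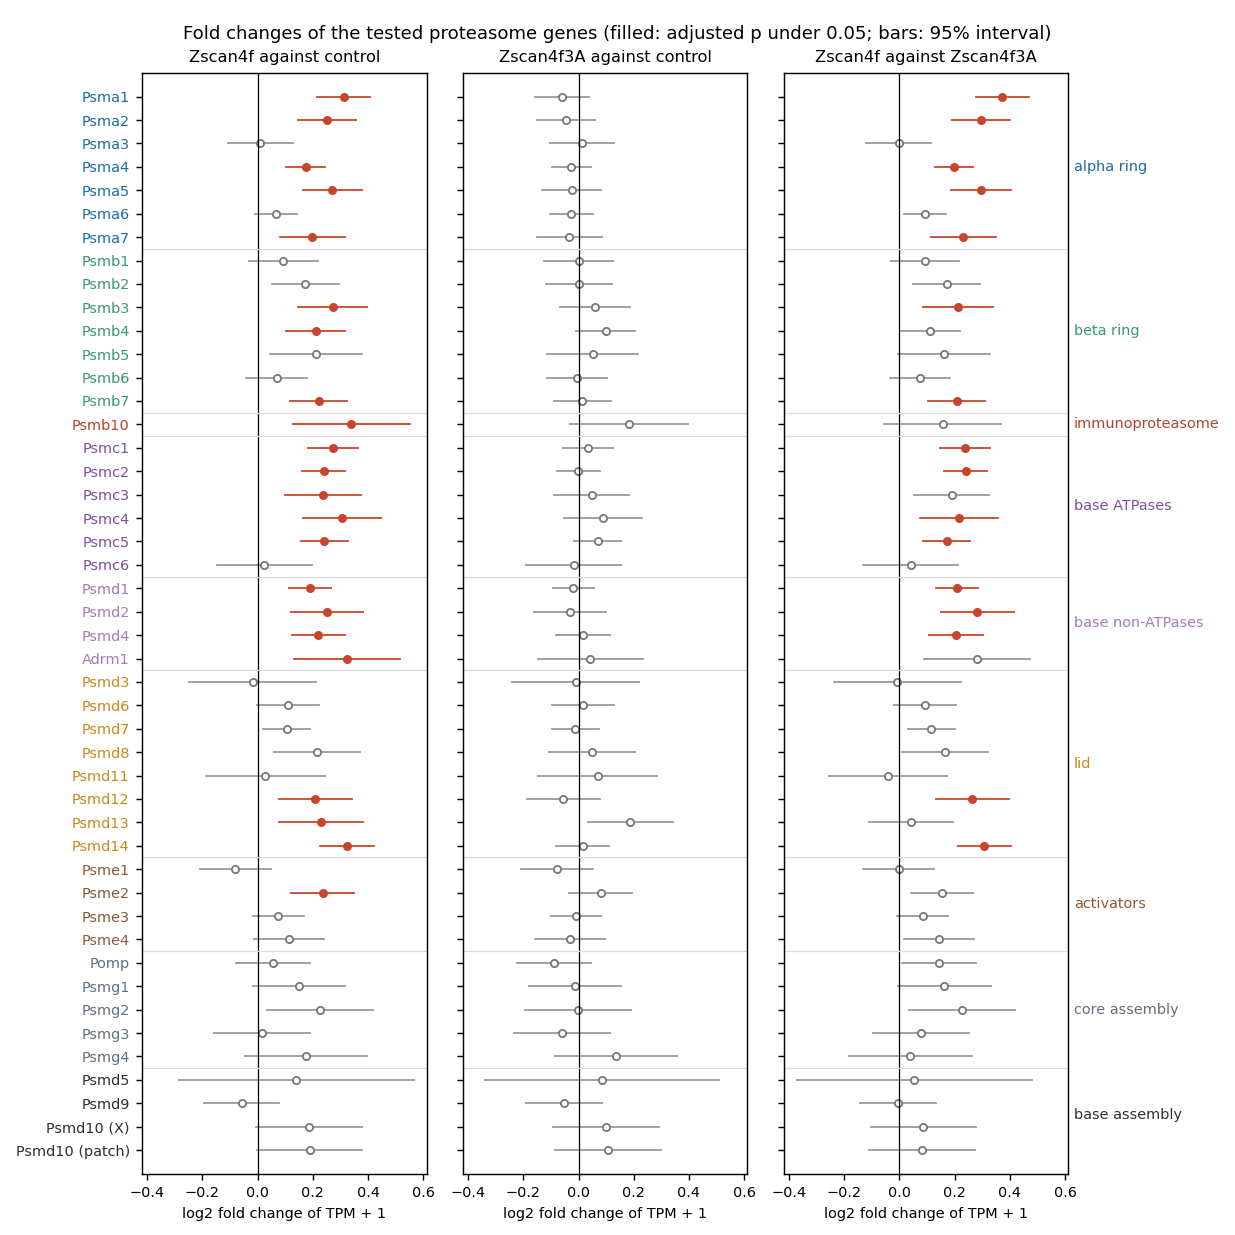
Log2 fold change of TPM + 1 with its 95% interval for the 46 gene IDs tested, in the 3 comparisons, with genes ordered by subcomplex. Filled red points passed an adjusted p under 0.05: 22 with Zscan4f against control, 0 with Zscan4f3A against control and 16 with Zscan4f against Zscan4f3A.

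Of the 7 alpha ring genes, 5 rose with Zscan4f, with a median log2 fold change of 0.20 over the ring. Psma1 (ENSMUSG00000030751.18, chromosome 7, 114264606 to 114276118) stood at 187, 186 and 177 TPM in control, 226, 229 and 227 with Zscan4f and 167, 184 and 176 with Zscan4f3A. The 3 Zscan4f libraries lay close together and above all others, a log2 change of 0.31 (SE 0.04, adjusted p = 0.0012) against control. Psma2 stood at 86.7, 87.9 and 85.0 TPM in control, 103, 106 and 101 with Zscan4f and 89.4, 81.3 and 81.1 with Zscan4f3A. Psma2 rose by 0.25 log2 units (SE 0.05, adjusted p = 0.0059). Within the annotated span of Psma2, on the same strand, lies RP23-5A19.7, of 8943 bases and a mean of 19.5 TPM, so the value of Psma2 depends on how reads were divided between them.

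Psma5, another subunit of the ring, stood at 142, 148 and 157 TPM in control, 179.7, 185 and 175 with Zscan4f and 151, 147 and 141 with Zscan4f3A. Psma5 rose by 0.27 log2 units (SE 0.05, adjusted p = 0.0046), without overlap between the groups. Psma4 stood at 207, 214 and 209 TPM in control, 232, 236 and 242 with Zscan4f and 209, 205 and 204 with Zscan4f3A, and its rise of 0.17 log2 units (SE 0.03, adjusted p = 0.0048) was the smallest called. Psma7 stood at 202, 216 and 192 TPM in control, 232, 227 and 241 with Zscan4f and 204, 203 and 189 with Zscan4f3A. Here the control libraries spread over more of the gap, and the rise of 0.20 log2 units (SE 0.05, adjusted p = 0.030) was lost when any 1 of control replicates 1 and 3 and Zscan4f replicates 1, 2 and 3 was left out (adjusted p from 0.0537 to 0.101). Psma3 and Psma6, of the same ring, were not called: Psma3 stood at 132, 130.3 and 140.1 TPM in control, 134, 141 and 131 with Zscan4f and 127, 138 and 141 with Zscan4f3A, with all groups overlapping and a 95% interval of -0.11 to 0.13 around a log2 fold change of 0.01. For Psma6 the log2 change was 0.07 (SE 0.03, adjusted p = 0.23), with a 95% interval of -0.01 to 0.14, although all 3 Zscan4f libraries lay above control.

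In the beta ring 3 of 7 genes rose. Psmb3, a structural subunit, stood at 235, 243 and 236 TPM in control, 263, 301 and 300.5 with Zscan4f and 256, 241 and 248 with Zscan4f3A. Psmb3 rose by 0.27 log2 units (SE 0.06, adjusted p = 0.0097). Psmb4, also structural, stood at 241, 223 and 215 TPM in control, 252, 265 and 268 with Zscan4f and 247, 242 and 237 with Zscan4f3A. Psmb4 rose by 0.21 log2 units (SE 0.05, adjusted p = 0.015). The Zscan4f3A libraries of Psmb4 lay between the others and overlapped the control. The Psmb4 call was lost when any 1 of control replicates 2 and 3 and Zscan4f replicates 2 and 3 was left out (adjusted p from 0.0518 to 0.0594).

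Among the cutting subunits only Psmb7, which carries the trypsin-like activity, was called. Psmb7 stood at 201, 203 and 208 TPM in control, 227, 239.7 and 247 with Zscan4f and 214, 209 and 195 with Zscan4f3A. Psmb7 rose by 0.22 log2 units (SE 0.04, adjusted p = 0.0099) with all Zscan4f libraries above all others. Psmb5, the chymotrypsin-like subunit, stood at 185, 175 and 151 TPM in control, 194, 201 and 195 with Zscan4f and 182, 182 and 165 with Zscan4f3A. All Zscan4f libraries of Psmb5 lay above control, but control replicate 3 lay well below the other 2, and the log2 change of 0.21 (SE 0.07, adjusted p = 0.082) missed the threshold, as it did in 15 of 17 alternatives. Psmb6, the caspase-like subunit, stood at 219, 228 and 231 TPM in control, 223, 241 and 249 with Zscan4f and 229.9, 230.2 and 217 with Zscan4f3A, with the groups overlapping and a log2 change of 0.07 (SE 0.05, adjusted p = 0.39). The 95% intervals of the 3 cutting subunits against control overlapped, at 0.04 to 0.38 for Psmb5, -0.04 to 0.18 for Psmb6 and 0.12 to 0.32 for Psmb7, and no test of a difference between them was made. Psmb2 (log2 change 0.17, SE 0.05, adjusted p = 0.054) and Psmb1 (log2 change 0.09, SE 0.05, adjusted p = 0.30) were not called, Psmb2 narrowly.

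Of the immunoproteasome subunits, Psmb8 and Psmb9 were nearly absent in all groups and Psmb10 was detected at a moderate level. Psmb8 stood at 0.541, 0.570 and 0.191 TPM in control, 0.543, 0.393 and 0.722 with Zscan4f and 0.611, 0.447 and 0.207 with Zscan4f3A. Psmb9 stood at 0.640, 0.757 and 0.814 TPM in control, 0.538, 0.463 and 0.304 with Zscan4f and 0.227, 0.558 and 0.619 with Zscan4f3A. Both failed the filter of 1 TPM in at least 3 libraries and were not tested. Psmb9 overlaps the start of Tap1, which stood at a mean of 7.36 TPM, by 212 bases. Psmb10, the third, was detected at 12.2, 13.2 and 10.7 TPM in control, 16.9, 15.4 and 14.2 with Zscan4f and 14.6, 13.5 and 13.2 with Zscan4f3A, and its rise with Zscan4f of 0.34 log2 units (SE 0.09, adjusted p = 0.036) was the largest of all members on the log2 scale. It was also among the least certain, since the interval ran from 0.13 to 0.55 and the call was lost when any 1 of control replicates 1 and 3, Zscan4f replicates 1 and 2 or Zscan4f3A replicate 2 was left out (adjusted p from 0.0531 to 0.113). An antisense gene, AC133499.1, covers all 2710 bases of Psmb10 at a mean of 2.23 TPM, and it is not stated whether reads were counted by strand. Together the 3 subunits made up 2.17, 2.35 and 1.94% of the summed TPM of the 6 cutting subunits in control, 2.71, 2.32 and 2.16% with Zscan4f and 2.41, 2.28 and 2.38% with Zscan4f3A, and these shares overlapped between the groups.

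In the base of the regulatory particle nearly all genes were called: 5 of 6 ATPases and 4 of 4 other subunits rose. Among the ATPases, Psmc2 stood at 154, 150.0 and 158 TPM in control, 178, 183 and 183 with Zscan4f and 152, 158 and 151 with Zscan4f3A. Psmc2 rose by 0.24 log2 units (SE 0.03, adjusted p = 0.0017), without overlap. Psmc1 (ENSMUSG00000021178.9, chromosome 12, 100110154 to 100123405) stood at 211, 205 and 198 TPM in control, 244, 254 and 245 with Zscan4f and 216, 212 and 201 with Zscan4f3A. Psmc1 rose by 0.27 log2 units (SE 0.04, adjusted p = 0.0019). Psmc5 stood at 193, 193 and 193 TPM in control, 224, 241 and 221 with Zscan4f and 200.4, 206 and 202 with Zscan4f3A. Psmc5 rose by 0.24 log2 units (SE 0.04, adjusted p = 0.0026). In Psmc5 the 3 control libraries were nearly equal, and the Zscan4f3A libraries also lay above all of them, by a smaller step.

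Psmc4 stood at 153, 136 and 145 TPM in control, 165, 192 and 179 with Zscan4f and 151, 152 and 157 with Zscan4f3A. Psmc4 rose by 0.30 log2 units (SE 0.06, adjusted p = 0.0099) with a wider spread among its Zscan4f libraries. Psmc3 stood at 191, 182 and 175 TPM in control, 206, 231 and 211 with Zscan4f and 202, 186 and 179 with Zscan4f3A. Psmc3 rose by 0.24 log2 units (SE 0.06, adjusted p = 0.026). The Psmc3 call was lost when any 1 of control replicates 2 and 3 and Zscan4f replicates 2 and 3 was left out (adjusted p from 0.0568 to 0.0871), and 4579 bases of the gene overlap Slc39a13 on the other strand, which had a mean of 107 TPM. Psmc6 was the ATPase that was not called. It stood at 133, 149.9 and 134 TPM in control, 149, 141 and 135 with Zscan4f and 152, 127 and 134 with Zscan4f3A, so that each group held both high and low libraries, with a 95% interval of -0.15 to 0.20.

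Of the other base subunits, Psmd1, a large scaffold, stood at 146, 148 and 149 TPM in control, 175, 165 and 167 with Zscan4f and 147, 147 and 144 with Zscan4f3A. Psmd1 rose by 0.19 log2 units (SE 0.03, adjusted p = 0.0046). Psmd4, a ubiquitin receptor, stood at 165, 168 and 158 TPM in control, 182, 194 and 198 with Zscan4f and 169, 160.4 and 167 with Zscan4f3A. Psmd4 rose by 0.22 log2 units (SE 0.04, adjusted p = 0.0078). Both separated the Zscan4f libraries from all others. Psmd2, the second scaffold, stood at 225, 228 and 224 TPM in control, 265, 265 and 275 with Zscan4f and 229.9, 234 and 199 with Zscan4f3A. Psmd2 rose by 0.25 log2 units (SE 0.06, adjusted p = 0.017), a call lost when any 1 of control replicates 1 and 3 and Zscan4f replicate 3 was left out (adjusted p from 0.0514 to 0.063). Adrm1, a further ubiquitin receptor that binds the deubiquitinase Uchl5, stood at 125, 123 and 119.6 TPM in control, 146, 157 and 159 with Zscan4f and 134, 138 and 109 with Zscan4f3A. Adrm1 rose by 0.32 log2 units (SE 0.08, adjusted p = 0.029). Its 3 Zscan4f3A libraries straddled the control, with replicate 3, the library of lowest depth, the lowest of all 9. The Adrm1 call was lost when any 1 of control replicates 1, 2 and 3 and Zscan4f replicates 2 and 3 was left out (adjusted p from 0.0628 to 0.092).

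The lid was more mixed, with 3 of 8 genes higher. Its small subunit Sem1 is not among the members and is read with the partners below. All counts and sums of lid and regulatory genes leave it out. Psmd14 (ENSMUSG00000026914.15, chromosome 2, 61711694 to 61800376), the deubiquitinase of the lid, stood at 136, 131 and 145 TPM in control, 173, 171 and 171 with Zscan4f and 142, 138 and 135 with Zscan4f3A. Psmd14 rose by 0.32 log2 units (SE 0.04, adjusted p = 0.0011). Its Zscan4f libraries were the 3 highest of the 9, and its p was the smallest of all members. Psmd12 stood at 83.7, 80.6 and 84.8 TPM in control, 97.7, 97.1 and 93.4 with Zscan4f and 87.2, 78.3 and 74.5 with Zscan4f3A. Psmd12 rose by 0.21 log2 units (SE 0.06, adjusted p = 0.039). Psmd13 stood at 86.2, 84.7 and 88.9 TPM in control, 98.7, 106 and 100.3 with Zscan4f and 89.1, 100.3 and 108 with Zscan4f3A. Psmd13 rose by 0.23 log2 units (SE 0.07, adjusted p = 0.046). The Zscan4f3A libraries of Psmd13 too lay above all control libraries, as in Psmb10 and Psmc5. Psmd12 was lost when any 1 of control replicates 1, 2 and 3, Zscan4f replicates 1, 2 and 3 or Zscan4f3A replicate 2 was left out (adjusted p from 0.054 to 0.117), and Psmd13 when any 1 of control replicates 1, 2 and 3, Zscan4f replicates 1, 2 and 3 or Zscan4f3A replicate 2 was left out (adjusted p from 0.0646 to 0.141). Within the span of Psmd13 lies a processed pseudogene on the same strand, AC107815.5, with a mean of 17.2 TPM. Psmd8 (log2 change 0.22, SE 0.07, adjusted p = 0.062), Psmd7 (log2 change 0.10, SE 0.04, adjusted p = 0.092) and Psmd6 (log2 change 0.11, SE 0.05, adjusted p = 0.17) were not called. Psmd3, which stood at 168, 169.7 and 159 TPM in control, 147, 191 and 156 with Zscan4f and 173, 174 and 148 with Zscan4f3A, had 1 high Zscan4f library and an interval of -0.25 to 0.21, and Psmd11 an interval of -0.19 to 0.24.

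**Figure D3:**
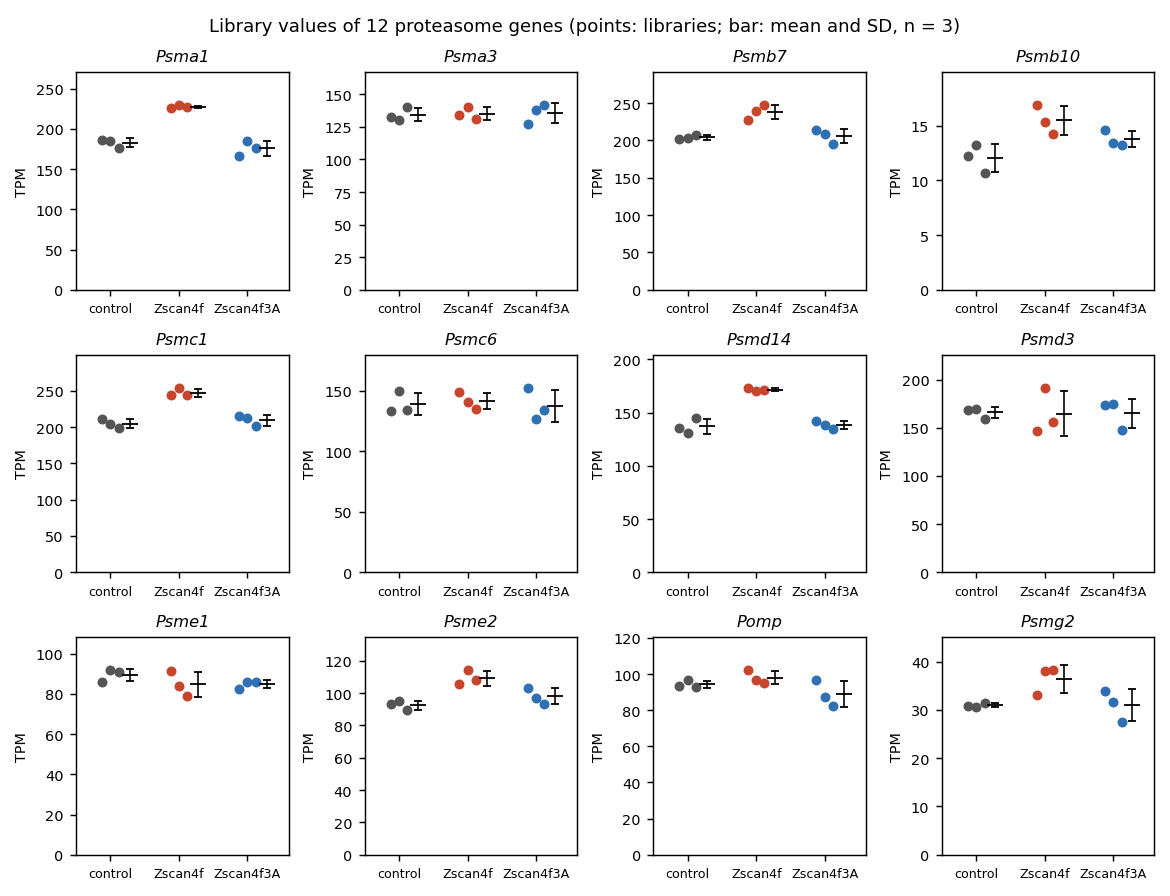
TPM of 12 proteasome genes in each library, with the mean and SD of the 3 libraries of a group beside the points and every axis starting at 0. Psma1, Psmc1 and Psmd14 show 3 Zscan4f libraries above all others, while the groups overlap in Psma3, Psmc6, Psmd3 and Pomp.

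Of the 4 activators, Psme2 alone was called. Psme1 and Psme2 together form the activator ring that interferon induces, and Psme3 and Psme4 are nuclear activators. Psme2 stood at 93.2, 94.95 and 89.5 TPM in control, 105, 114 and 108 with Zscan4f and 103, 96.9 and 93.6 with Zscan4f3A. Psme2 rose by 0.24 log2 units (SE 0.05, adjusted p = 0.012). Its partner Psme1 stood at 86.2, 91.7 and 90.8 TPM in control, 91.6, 83.8 and 78.9 with Zscan4f and 82.5, 85.8 and 86.1 with Zscan4f3A, with a log2 change of -0.08 (SE 0.06, adjusted p = 0.39), below 0, and a 95% interval of -0.21 to 0.05. The ratio of Psme2 to Psme1 TPM was 1.08, 1.04 and 0.986 in control, 1.15, 1.36 and 1.37 with Zscan4f and 1.25, 1.13 and 1.09 with Zscan4f3A, so that Zscan4f lay above control in every library and overlapped Zscan4f3A. A related gene, Psme2b, stood lower, at 2.42, 3.58 and 3.24 TPM in control, 1.81, 1.25 and 2.17 with Zscan4f and 2.89, 2.46 and 2.01 with Zscan4f3A, and reads shared by Psme2 and Psme2b cannot be told apart in these values. Psme3 stood at 96.9, 96.8 and 92.4 TPM in control, 97.9, 104 and 99.8 with Zscan4f and 94.4, 97.4 and 92.5 with Zscan4f3A. Psme4 stood at 73.5, 69.2 and 76.3 TPM in control, 79.2, 79.4 and 78.5 with Zscan4f and 73.6, 74.7 and 66.3 with Zscan4f3A. Both had Zscan4f libraries above all others by a small step, and neither was called, with log2 changes of 0.08 (SE 0.04, adjusted p = 0.25) and 0.11 (SE 0.06, adjusted p = 0.21).

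None of the 9 gene IDs of assembly factors was called against control, where 8.74% of all genes tested were called higher and 9.71% lower. Psmd10 counts with both of its IDs among the 9. Of their log2 fold changes 8 lay above 0, and 1 had an unadjusted p under 0.05. That 1 was Psmg2, a chaperone that helps to build the alpha ring, at 30.9, 30.6 and 31.4 TPM in control, 33.1, 38.1 and 38.2 with Zscan4f and 33.9, 31.6 and 27.5 with Zscan4f3A, with a log2 change of 0.23 (SE 0.08, adjusted p = 0.10). In the base group Psmd10, a chaperone of the ATPase ring also known as gankyrin, had the smallest p. Summed over both of its IDs it stood at 31.6, 26.2 and 28.9 TPM in control, 35.8, 33.4 and 30.3 with Zscan4f and 32.0, 30.8 and 30.6 with Zscan4f3A, and the ID on chromosome X had a log2 change of 0.19 (SE 0.08, adjusted p = 0.17). Pomp, the maturation factor of the beta ring, stood at 93.3, 96.7 and 92.9 TPM in control, 102, 96.9 and 95.2 with Zscan4f and 96.5, 87.4 and 82.6 with Zscan4f3A, with an interval of -0.08 to 0.19. For Psmg1, Psmg3, Psmg4, Psmd5 and Psmd9 the log2 fold changes were 0.15, 0.02, 0.18, 0.14 and -0.06. The intervals were wide for some of these genes, from -0.05 to 0.40 for Psmg4 and from -0.28 to 0.57 for Psmd5, and so include rises of the size called in the subunits. The median log2 fold change of the 9 IDs was 0.15. It was 0.20 for the rings, 0.22 for base and lid together and 0.16 for the lid. No test of a difference between these sets was made.

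Summed over the 14 genes of the alpha and beta rings, the level was 2590.2, 2613 and 2555 TPM in control, 2855, 2984 and 2971 with Zscan4f and 2639, 2605 and 2544 with Zscan4f3A. For the 18 genes of base and lid it was 2823, 2819 and 2828 TPM in control, 3197, 3317 and 3241 with Zscan4f and 2939, 2896 and 2786 with Zscan4f3A. In both sums every Zscan4f library lay above every other library, while Zscan4f3A and control overlapped. The ratio of the core median to the regulatory median was 1.26 ± 0.0306 in control, 1.21 ± 0.0442 with Zscan4f and 1.25 ± 0.0295 with Zscan4f3A (SD, n = 3 each), so the ratios lay close together beside their SDs. The sums are descriptions, since their members were chosen with earlier results known.

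**Figure D4:**
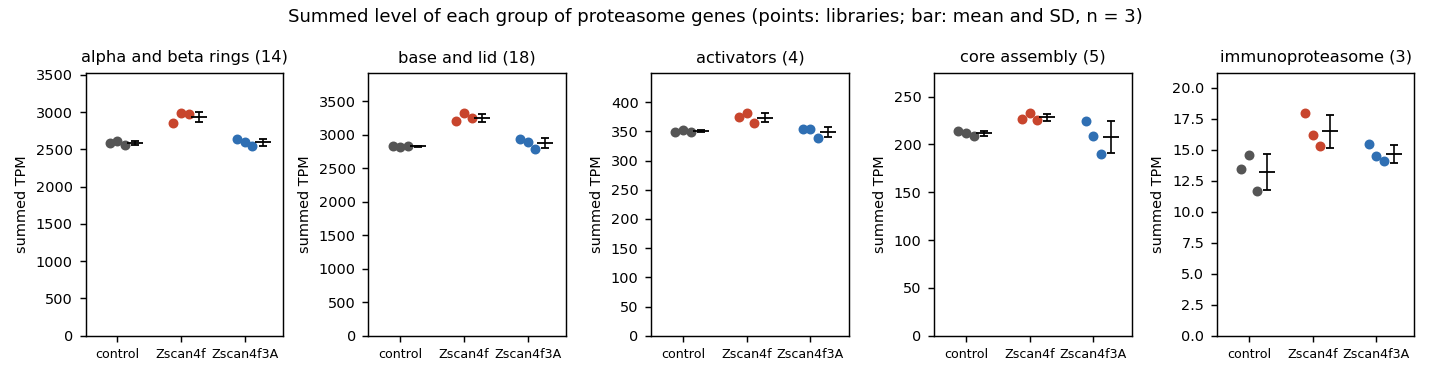
Summed TPM per library for 5 sets of proteasome genes, with the number of genes in brackets, points for libraries and a bar for the mean and SD. In both particles the Zscan4f libraries lie above the rest (2855 to 2984 TPM for the rings, against 2544 to 2639 in the other groups), while the immunoproteasome sum stays under 18 TPM in every library.

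No proteasome gene was called with Zscan4f3A against control. By limma 0 of 46 gene IDs were called in either direction, and the smallest adjusted p was 0.5. Only 1 had an unadjusted p under 0.05 (Psmd13, higher), where 1389 of all 15837 genes tested did. The background of calls was also low, since 0.0189% of all genes tested were called higher and 0.0126% lower, and among genes with a mean of at least 50 TPM 0.0545% and 0.0272%. The members' median log2 fold change was 0.0011, against -0.012 over all genes. Without Zscan4f3A replicate 3, the library of lowest depth, it was 0.037, with 0 members and 16 of all genes called in place of 5. All 3 Zscan4f3A libraries lay above all control libraries for Psmb10, Psmc5 and Psmd13 and below them for Psme1, that is 3 and 1 of 46, where 6.29% and 9.09% of all genes did. A missing call does not show that levels were equal, but the 95% interval lay within 0.2 of 0 on the log2 scale for 30 of 46 gene IDs and within 0.3 for 42. For Psma1 it ran from -0.16 to 0.04, for Psmc1 from -0.06 to 0.12 and for Psmd14 from -0.08 to 0.11, each with an upper bound below the fitted rise with Zscan4f. For Psmb10 it ran from -0.03 to 0.40 and for Psmd13 from 0.04 to 0.34. Both of these upper bounds lay above the fitted rises with Zscan4f, of 0.34 and 0.23. The widest was that of Psmd5, from -0.34 to 0.51.

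The direct comparison of Zscan4f with Zscan4f3A asks whether the 2 forms differ. Here 16 of 46 gene IDs were higher with Zscan4f and 0 lower, where 7.48% of all genes tested were called higher and 7.64% lower. Among genes with a mean of at least 50 TPM these shares were 13.0% and 9.69%. At an unadjusted p under 0.05 stood 27 members higher and 0 lower, and 4677 of all 15837 genes tested in either direction. All 16 were also among the 22 called against control, which shares the Zscan4f libraries. They were 5 alpha ring genes, 2 of the beta ring, 4 ATPases, 3 other base subunits and 2 of the lid, and none were activators or assembly factors. Psma1 differed by 0.37 log2 units (SE 0.04, adjusted p = 0.00072), the largest difference of all members. Psmd14 differed by 0.31 log2 units (SE 0.04, adjusted p = 0.0019), Psma2 by 0.30 log2 units (SE 0.05, adjusted p = 0.0033) and Psma5 by 0.30 log2 units (SE 0.05, adjusted p = 0.0038). Psmc2 differed by 0.24 log2 units (SE 0.03, adjusted p = 0.0022), Psmc1 by 0.24 log2 units (SE 0.04, adjusted p = 0.0047), Psmd1 by 0.21 log2 units (SE 0.03, adjusted p = 0.0037) and Psma4 by 0.20 log2 units (SE 0.03, adjusted p = 0.0031). These 8 calls held under all 17 alternatives.

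The other 8 differences between the forms were less secure. Psma7 (log2 change 0.23, SE 0.05, adjusted p = 0.019) was lost when any 1 of Zscan4f replicates 1 and 3 was left out (adjusted p from 0.0528 to 0.0705), and Psmb7 (log2 change 0.21, SE 0.04, adjusted p = 0.016) when any 1 of Zscan4f replicates 2 and 3 was left out (adjusted p from 0.0554 to 0.0629). Psmd4 (log2 change 0.20, SE 0.04, adjusted p = 0.014) was lost when any 1 of Zscan4f replicates 2 and 3 was left out (adjusted p from 0.0503 to 0.0548), and Psmd2 (log2 change 0.28, SE 0.06, adjusted p = 0.012) when Zscan4f replicate 3 was left out (adjusted p of 0.0507). Psmd12 (log2 change 0.26, SE 0.06, adjusted p = 0.017) was lost when any 1 of Zscan4f replicates 1 and 2 and Zscan4f3A replicate 2 was left out (adjusted p from 0.056 to 0.0598), and Psmc5 (log2 change 0.17, SE 0.04, adjusted p = 0.017) when Zscan4f3A replicate 1 was left out (adjusted p of 0.0528). Psmb3 (log2 change 0.21, SE 0.06, adjusted p = 0.034) was lost when any 1 of control replicates 1, 2 and 3, Zscan4f replicates 2 and 3 or Zscan4f3A replicates 1, 2 and 3 was left out (adjusted p from 0.0504 to 0.112). Psmc4 (log2 change 0.22, SE 0.06, adjusted p = 0.048) was lost when any 1 of control replicates 1 and 3, Zscan4f replicates 2 and 3 or Zscan4f3A replicates 1, 2 and 3 was left out (adjusted p from 0.0507 to 0.137). Without Zscan4f replicate 3 the count was 10 in place of 16. The 6 genes called against control alone were Psmb4, Psmb10, Psmc3, Adrm1, Psmd13 and Psme2. Their differences between the forms were 0.11, 0.16, 0.19, 0.28, 0.04 and 0.15, so Zscan4f and Zscan4f3A are not shown to differ there.

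Since many subunit genes moved together, their promoters were read from RefSeq on GRCm38.p6, which held 40 of the 47 genes. The 200 bases before the start of 6 genes follow, on the strand of each gene: those with the smallest p in the alpha ring and the lid and an ATPase called under every alternative (Psma1, Psmd14 and Psmc1), an alpha ring gene that was not called (Psma3), and the near-silent Psmb8 and Psmb9. Capitals mark matches, on either strand, to the antioxidant response element core that Nfe2l1 and Nfe2l2 bind (TGACNNNGC or TGAGNNNGC), the NF-Y box (CCAAT, read ATTGG on the other strand), the core of the interferon-stimulated response element (GAAA, any 2 bases, GAAA) or a STAT site (TTCNNNGAA). The start is that of RefSeq. For Psmb8 and Psmb9 it lies inside the gene as the files give it, so their stretches are not upstream of the files' start. The stretch of Psmc1 runs past the files' start, at 100110154, to 100110201, and those of Psma1 and Psma3 only just pass it. For Psmb8 and Psmc1 the RefSeq start did not open a transcript of GENCODE M21. No matches to different motifs overlapped in the members.

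Psma1, chr7:114276117-114276316, minus strand: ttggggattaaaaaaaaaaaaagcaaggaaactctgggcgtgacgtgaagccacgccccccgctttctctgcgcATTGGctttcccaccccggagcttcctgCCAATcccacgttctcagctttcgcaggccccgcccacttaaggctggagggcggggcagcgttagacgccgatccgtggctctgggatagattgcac

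Psmd14, chr2:61711494-61711693, plus strand: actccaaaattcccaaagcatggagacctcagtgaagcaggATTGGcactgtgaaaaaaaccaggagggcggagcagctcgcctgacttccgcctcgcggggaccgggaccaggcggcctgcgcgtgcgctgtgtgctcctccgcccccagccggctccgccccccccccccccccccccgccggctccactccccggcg

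Psmc1, chr12:100110002-100110201, plus strand: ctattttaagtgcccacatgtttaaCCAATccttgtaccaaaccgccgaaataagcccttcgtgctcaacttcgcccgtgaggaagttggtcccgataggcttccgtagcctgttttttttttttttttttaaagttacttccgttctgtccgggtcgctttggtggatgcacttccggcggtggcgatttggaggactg

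Psma3, chr12:70974423-70974622, plus strand: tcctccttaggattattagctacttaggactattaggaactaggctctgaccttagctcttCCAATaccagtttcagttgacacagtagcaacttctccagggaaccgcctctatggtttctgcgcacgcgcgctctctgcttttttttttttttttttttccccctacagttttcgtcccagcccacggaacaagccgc

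Psmb8, chr17:34197995-34198194, plus strand: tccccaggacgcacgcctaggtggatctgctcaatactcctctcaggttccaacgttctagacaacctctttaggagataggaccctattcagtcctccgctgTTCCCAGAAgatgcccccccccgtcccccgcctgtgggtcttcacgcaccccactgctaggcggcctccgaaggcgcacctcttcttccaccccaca

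Psmb9, chr17:34187331-34187530, minus strand: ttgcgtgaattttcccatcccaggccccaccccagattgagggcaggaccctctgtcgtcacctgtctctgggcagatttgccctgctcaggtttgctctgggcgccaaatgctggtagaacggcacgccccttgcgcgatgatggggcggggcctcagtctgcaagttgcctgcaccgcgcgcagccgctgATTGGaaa

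Psma1 holds an NF-Y box on each strand, Psmd14, Psmc1, Psma3 and Psmb9 hold 1 each, and Psmb8 holds a STAT site. The box is thus present in called genes and in Psma3, which was not called. Psmc2, the ATPase with the smallest p, was not printed, and held both an NF-Y box and an antioxidant response element core. In the 250 bases before the start, an antioxidant response element core was found in 13 of 40 members, or 32.5%, against 25.7% of all 27025 genes in the table. The NF-Y box was found in 14, or 35%, against 37.5%. The interferon element was found in 3, Psmb3, Psmd4 and Psmd9, or 7.5%, against 3.46%, and the STAT site in 2, Psmb8 and Psmg1, or 5%, against 8.13%. A match is a stretch of letters and not evidence of binding.

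Other genes of the pathway were read from 4 lists. Of 56 genes, 54 were matched by name and 51 gene IDs passed the filter. With Zscan4f 9 rose and 4 fell against control, where 8.74% and 9.71% of all genes did, and their median log2 fold change was 0.05. Zscan4f3A changed 0 of 51 by limma, with 6 at an unadjusted p under 0.05, where 1389 of all 15837 genes tested were. Between the forms 10 were higher with Zscan4f and 2 lower, where 7.48% and 7.64% of all genes were. These 12 calls fell to 5 without Zscan4f replicate 3, to 6 without Zscan4f replicate 1, without Zscan4f3A replicate 2 or with no trend, and to 7 with a replicate block or a fit of only these groups.

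Among 12 tested partners that bind the proteasome, Uchl5 alone was called. Uchl5, the deubiquitinase held by Adrm1, stood at 26.4, 26.3 and 27.5 TPM in control, 34.3, 35.3 and 33.9 with Zscan4f and 28.3, 27.6 and 24.7 with Zscan4f3A. Uchl5 rose by 0.35 log2 units (SE 0.06, adjusted p = 0.0036) against control and 0.35 log2 units (SE 0.06, adjusted p = 0.0048) against Zscan4f3A. Usp14, the other reversibly bound deubiquitinase, stood at 106, 103 and 106 TPM in control, 105, 115 and 107 with Zscan4f and 102, 102 and 102 with Zscan4f3A, with a log2 change of 0.05 (SE 0.04, adjusted p = 0.43). Sem1, the small lid subunit, stood at 116, 122 and 115 TPM in control, 121, 120.4 and 116 with Zscan4f and 111, 109 and 109 with Zscan4f3A, and was not called (log2 change 0.02, SE 0.04, adjusted p = 0.76).

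Of 13 gene IDs for regulators of proteasome gene transcription and their processing, 3 rose and 1 fell. Nfe2l3, a relative of Nfe2l1, stood at 32.7, 34.2 and 37.8 TPM in control, 50.3, 48.3 and 51.4 with Zscan4f and 34.1, 35.5 and 39.0 with Zscan4f3A. Nfe2l3 rose by 0.51 log2 units (SE 0.07, adjusted p = 0.0013), the largest rise in this list. Nfe2l1 itself stood at 186, 168 and 148 TPM in control, 156, 155 and 159.6 with Zscan4f and 156, 142 and 160.0 with Zscan4f3A, with overlapping groups and a log2 change of -0.09 (SE 0.08, adjusted p = 0.54), and Nfe2l2, the regulator of antioxidant genes, had a log2 change of 0.09 (SE 0.04, adjusted p = 0.17). Nfe2l1 is controlled largely after translation, so its RNA does not report its activity. Nploc4, a cofactor of the segregase Vcp, stood at 72.3, 73.1 and 69.4 TPM in control, 84.2, 82.0 and 84.6 with Zscan4f and 74.4, 75.6 and 75.3 with Zscan4f3A. Nploc4 rose by 0.22 log2 units (SE 0.04, adjusted p = 0.0033). Vcp rose by 0.12 log2 units (SE 0.03, adjusted p = 0.032), a call lost when any 1 of control replicates 1, 2 and 3 and Zscan4f replicates 1, 2 and 3 was left out (adjusted p from 0.0689 to 0.102). Ngly1, the glycanase that helps to activate Nfe2l1, fell, with a log2 change of -0.20 (SE 0.06, adjusted p = 0.044), a call lost when any 1 of control replicates 1 and 3, Zscan4f replicates 1, 2 and 3 or Zscan4f3A replicates 2 and 3 was left out (adjusted p from 0.0501 to 0.135). Against Zscan4f3A, Nploc4 differed by 0.15 log2 units (SE 0.04, adjusted p = 0.023), a call lost when any 1 of Zscan4f replicates 1 and 3 and Zscan4f3A replicates 1 and 2 was left out (adjusted p from 0.0553 to 0.081).

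Of 12 ubiquitin genes and shuttle factors tested with Zscan4f against control, Rps27a alone rose (log2 change 0.24, SE 0.05, adjusted p = 0.016) and 0 fell. That call was lost when control replicate 2 was left out (adjusted p of 0.0588). Rps27a encodes a ribosomal protein fused to ubiquitin, and the polyubiquitin gene Ubb (log2 change -0.11, SE 0.08, adjusted p = 0.40) was not called. Against Zscan4f3A Rps27a was not called (log2 change 0.11, SE 0.05, adjusted p = 0.20), and the shuttle factors Ubqln2 (log2 change 0.17, SE 0.04, adjusted p = 0.030) and Sqstm1 (log2 change 0.15, SE 0.04, adjusted p = 0.025) were higher with Zscan4f. Ubqln2 was lost when any 1 of Zscan4f replicates 1, 2 and 3 and Zscan4f3A replicates 2 and 3 was left out (adjusted p from 0.0589 to 0.0898), and Sqstm1 when any 1 of Zscan4f replicates 2 and 3 and Zscan4f3A replicates 1 and 2 was left out (adjusted p from 0.0584 to 0.0873).

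Antigen processing genes, which use the peptides that proteasomes make, went in both directions: of 14 tested, 4 rose and 3 fell with Zscan4f. H2-K1, a heavy chain of class I MHC, stood at 39.4, 47.0 and 43.9 TPM in control, 74.2, 65.4 and 70.2 with Zscan4f and 50.8, 54.3 and 61.6 with Zscan4f3A. H2-K1 rose by 0.68 log2 units (SE 0.09, adjusted p = 0.0011). H2-D1, another heavy chain, stood at 196, 198 and 193 TPM in control, 241, 250.3 and 255 with Zscan4f and 209, 204 and 195 with Zscan4f3A. H2-D1 rose by 0.34 log2 units (SE 0.04, adjusted p = 0.00037). Class I genes are close relatives of one another, so reads may have been divided between them. Tapbp, which loads peptides on class I molecules, stood at 225, 222 and 236 TPM in control, 279, 285 and 282 with Zscan4f and 247, 237 and 251 with Zscan4f3A. Tapbp rose by 0.31 log2 units (SE 0.04, adjusted p = 0.00055).

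B2m, the light chain of class I MHC, fell while the heavy chains rose. It stood at 1268, 1298 and 1290.3 TPM in control, 1018, 1018 and 1039.6 with Zscan4f and 1250.3, 1254 and 1162 with Zscan4f3A, a log2 change of -0.33 (SE 0.03, adjusted p = 0.00030). Tap2, a subunit of the peptide transporter, also fell, at 10.2, 8.71 and 8.63 TPM in control, 5.81, 6.46 and 5.95 with Zscan4f and 7.78, 9.26 and 8.93 with Zscan4f3A, a log2 change of -0.52 (SE 0.10, adjusted p = 0.0058). Its partner Tap1, which shares its promoter region with Psmb9, stood at 7.93, 7.92 and 7.62 TPM in control, 5.89, 4.90 and 6.23 with Zscan4f and 7.77, 6.77 and 11.2 with Zscan4f3A, and was not called (log2 change -0.41, SE 0.16, adjusted p = 0.12). Against Zscan4f3A, H2-K1 differed by 0.33 log2 units (SE 0.09, adjusted p = 0.040), a call lost when any 1 of control replicate 3, Zscan4f replicates 1, 2 and 3 or Zscan4f3A replicates 1 and 2 was left out (adjusted p from 0.054 to 0.121). Tap2 differed by -0.45 log2 units (SE 0.10, adjusted p = 0.015), a call lost when any 1 of Zscan4f replicates 1 and 3 and Zscan4f3A replicate 2 was left out (adjusted p from 0.0535 to 0.0541). B2m (log2 change -0.25, SE 0.03, adjusted p = 0.0017), H2-D1 (log2 change 0.30, SE 0.04, adjusted p = 0.0012) and Tapbp (log2 change 0.20, SE 0.04, adjusted p = 0.0062) differed under all 17 alternatives.

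**Figure D5:**
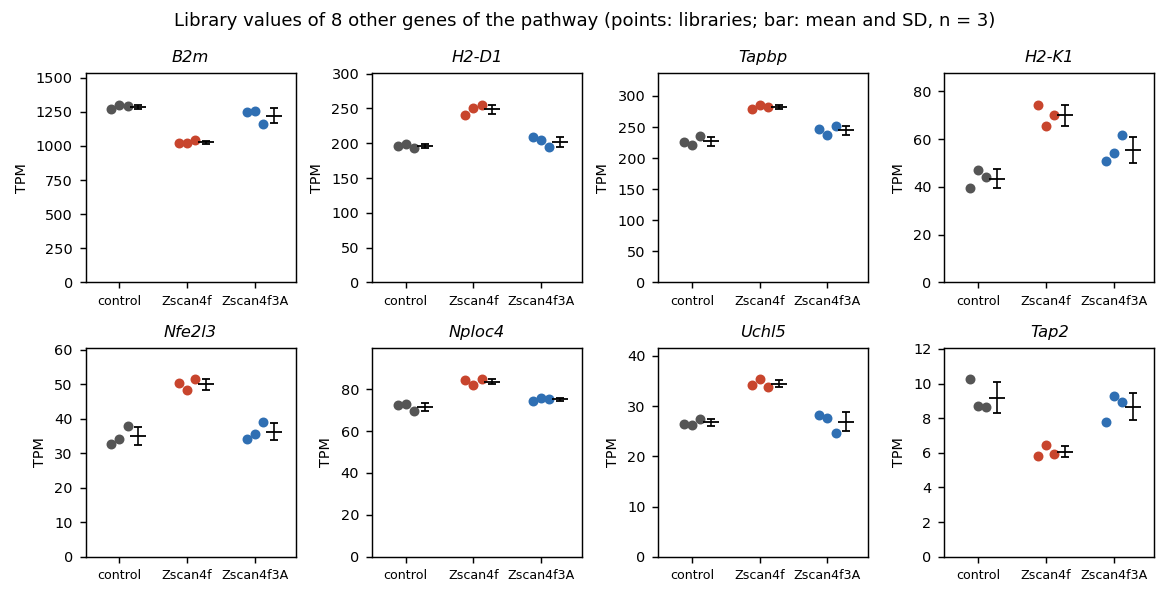
TPM in each library of the 8 other pathway genes with the smallest p among those called, with the mean and SD of the 3 libraries of a group beside the points and every axis starting at 0. H2-K1, H2-D1, Tapbp, Nfe2l3, Nploc4 and Uchl5 are higher in the Zscan4f libraries than in any other library, and B2m and Tap2 are lower.

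Since Psmb8, Psmb9, Psmb10, Psme1 and Psme2 are known interferon targets, 8 other interferon-induced genes were read beside them. Of these 4 rose with Zscan4f (Isg15, Bst2, Gbp2 and Gbp3) and 1 fell (Ifit3), where 8.74% of all genes tested rose and 9.71% fell. Their summed level was 92.5 to 93.8 TPM in control, 119 to 124 with Zscan4f and 93.7 to 101 with Zscan4f3A. Gbp3, a guanylate-binding protein, stood at 8.14, 6.62 and 6.88 TPM in control, 10.9, 13.4 and 12.7 with Zscan4f and 7.86, 7.71 and 7.37 with Zscan4f3A. Gbp3 rose by 0.70 log2 units (SE 0.10, adjusted p = 0.0016). Ifit3 stood at 7.58, 7.25 and 7.05 TPM in control, 5.87, 4.35 and 4.90 with Zscan4f and 6.44, 5.94 and 5.28 with Zscan4f3A, a log2 change of -0.47 (SE 0.11, adjusted p = 0.020). The calls of Isg15 and Ifit3 were lost when any 1 of control replicate 3 and Zscan4f replicates 2 and 3 was left out (adjusted p from 0.0534 to 0.0548) and when any 1 of control replicates 1 and 2 and Zscan4f replicates 2 and 3 was left out (adjusted p from 0.0572 to 0.0666). The part of interferon signalling in the rises of Psmb10 and Psme2 was not tested.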

How the data were processed

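Total RNA of 9 libraries was analysed from the abundance tables that the authors deposited, 1 per library, made with HISAT2 2.1.0 and StringTie per the submitters' processing notes. The deposited TPM values are scaled per kilobase and to the same sum per library, the deposited FPKM values per kilobase and by library fragments, and the deposited coverage signal is not corrected for depth. The files hold no counts. Each SD given is over the 3 libraries of a group, while each SE, interval and p-value comes from the limma fit of all 9 libraries. Library depth was estimated from the most common ratio of coverage to FPKM. In each library 17.9 to 19.3% of the genes examined shared that ratio, so the gigabases given are estimates. The sources used here give neither build nor annotation. Of the 54165 gene IDs also in GENCODE M21 (GRCm38), 97.7% had identical coordinates, as did 45 of the 48 member IDs. Coordinates are those of the files.

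The 15837 genes that reached 1 TPM in 3 or more libraries were fitted as log2(TPM + 1) with limma 3.58.1 in R 4.3.3: group means of all 9 libraries, trended empirical Bayes, two-sided, Benjamini-Hochberg adjustment over all genes tested, threshold 0.05. Fold changes are on the log2(TPM + 1) scale. The code was tested on simulated data. Members, lists and tests were chosen with earlier results of these data known. Library values are given for up to 5 called members per subcomplex, smallest p first, or the member of smallest p where none was called, for the cutting subunits of both kinds and for the activators. Of the other pathway genes up to 8 called ones are given. Further genes were named after their values were seen, among them Psma3, Psmc6, Psmd3, Pomp, Usp14, Sem1, Nfe2l1, Nfe2l2, Tap1, Psme2b, Vcp, Ngly1, Rps27a, Ubb, Ubqln2, Sqstm1, Gbp3, Ifit3 and the markers given by name, and the share of calls among genes of at least 50 TPM was also added then. The 17 alternatives left out each library in turn, used FPKM or median-of-ratios scaling, set the pseudocount to 0.1, dropped the filter or raised it to 5 TPM, fitted only the 2 groups compared, dropped the trend or added a replicate block. Figures were drawn with Python 3.11.15 and matplotlib 3.10.9.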

Additional observations from a re-analysis of the deposited data

How the results depend on the processing

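The members called with Zscan4f against control were 22, and ran from 16 to 24 under the 8 alternatives that kept all libraries and from 14 to 26 with 1 library left out, while the members' median log2 fold change stayed between 0.18 and 0.22. For Zscan4f against Zscan4f3A the 16 members called became 13 to 16, and 10 to 16 with 1 library left out. The median ran from 0.14 to 0.16, and from 0.12 to 0.18 with 1 library left out. For Zscan4f3A against control the count was 0 under every alternative run, and the median ran from -0.016 to 0.037 with 1 library left out. All genes called in that comparison, 5, became 3 with no filter, 1 with the replicate block and 1 to 16 with 1 library left out. For Zscan4f against Zscan4f3A, all genes called ran from 1574 to 2168 with 1 library left out, against 2395.

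Other pathway genes called between the forms, 12, became 7 in a fit of only these groups, 6 with no trend, 7 with the replicate block and 5 to 11 with 1 library left out. The replicate block gave 22, 0 and 15 members called in the 3 comparisons. Deviations of same-numbered libraries correlated at most at 0.0533, so no strong shared deviation was seen. That cannot tell whether same-numbered libraries were handled together, which the labels do not say. The block ended the calls of Psma7, Psmd13, Vcp, Ngly1 and Krt5 against control and of Psmb3, Psmc4, H2-K1, Nploc4, Ubqln2 and Sqstm1 between the forms. Not every library correlated best with its own number. No called gene named in the text changed direction under any of the 17 alternatives.

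Values that were not called changed sign with 1 library left out. Against control the log2 change ran from -0.019 to 0.040 for Psma3, -0.012 to 0.078 for Psmc6, -0.13 to 0.060 for Psmd3, -0.030 to 0.11 for Psmd11, -0.032 to 0.070 for Psmg3 and -0.0017 to 0.28 for Psmd5, and between the forms from -0.059 to 0.047 for Psme1 and -0.033 to 0.10 for Psmd13. Psmb2, Psmb5, Psmd7, Psmd8 and Psmg2, just past the threshold, were called against control under 6, 2, 3, 3 and 1 of the 17 alternatives, and Tap1 and Ubb under 2 each. Dropping the filter ended the calls of Adrm1, Psma7, Psmb10, Psmc3, Psmd12, Psmd13, Vcp and Ngly1 against control, dropping the trend those of Psma7, Psmc3, Psmd12, Psmd13, Vcp and Ngly1, FPKM those of Psmd13 and Ngly1, and fitting only these groups those of Psmb10, Ngly1 and Krt5. Between the forms at least 1 of these alternatives ended the calls of Psmb3, Psmc4, Psmc5, H2-K1, Nploc4, Ubqln2 and Sqstm1; the cause was not tested. The widest intervals of members against control were those of Psmd5, Psmd3 and Psmg4.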
